A study of Glycine max with 26 samples.

Results

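The storage globulins of soybean are the glycinins, genes with GY symbols, and the beta-conglycinins, genes with CG symbols. They were represented by 10 probe sets of 7 genes, 7 for glycinins and 3 for beta-conglycinins, among the 16383 probe sets of the table. A probe set was taken where its only gene symbol in the platform annotation was GY and a number or began with CG-, and 5002 probe sets of the table carried a single symbol. Another 3 probe sets of these families carried more than 1 gene entry and were left out: both GY4 probe sets, and a probe set shared by CG-1 and CG-3. The glycinin genes, with their NCBI gene IDs, were GY1 (547901) and GY2 (547900), with a pair of probe sets each, and GY3 (547463), GY5 (547452) and GY7 (547611). The beta-conglycinin genes were CG-BETA-1 (547465), with a pair of probe sets, and CG-1 (548007). Where a gene had a pair of probe sets, they are told apart by the ending of the name. In the naming of this array type, "at" marks probes made for 1 transcript, "a_at" probes shared by transcripts of 1 gene, and "s_at" probes that also fit other transcripts, so signals of the "s_at" probe sets can hold RNA of near-identical family members.

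Whole seeds with their coats were sampled from Williams 82, a standard soybean cultivar, 5 weeks after flowering. They came from plants that had been kept in 12 h light and 12 h dark and were then moved to constant light (350 µmol m-2 s-1, 25 °C, 75% relative humidity) at subjective dawn. Seeds were collected every 4 h from 24 h, a subjective dawn, to 72 h, which spans 48 h or 2 whole cycles. There were 2 replicates at every one of the 13 times, each a pool of 8 seeds from 3 plants, and there was no group of another genotype or treatment. The values were log2 signals per probe set on 26 single-colour arrays, so a difference of 1 log2 unit is a doubling of signal, and precision is limited by how many arrays there were.

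Glycinin, the 11S globulin, is made as a proglycinin that assembles into trimers in the endoplasmic reticulum and is cleaved in the protein storage vacuole before hexamers form. Beta-conglycinin, the 7S globulin, is a glycosylated trimer of alpha, alpha prime and beta subunits. Both are made in the cotyledons of the maturing seed, where they build up the nitrogen and sulfur store that the seedling uses, and their genes are textbook examples of seed-specific transcription.

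On each array the highest signal came from the same probe set, which has no single symbol here, at 16.43 to 16.79 log2, and the lowest signal lay between 1.54 and 3.02. By that lowest signal 13 arrays had a low floor and the other 13 a high floor, and every time had 1 array of either kind. Of the 25 probe sets of the seed coat marker list, 17 averaged above 4 log2. HPS at 14.14 log2, Ep at 13.59 and PRP2 at 12.56 were bright, while SC-03 was at 4.46. SCA1, at 3.09, entered the list only through a pattern of symbols starting with SC. Its level is not read as that of the seed coat. Of the embryo markers, KTI3 was at 15.47. The seeds were sampled with their coats, so storage globulin signals are those of whole seeds. Fewer cotyledon cells and less RNA per cell cannot be told apart.

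Most storage globulin transcripts were near the top of the measured range and varied little between arrays over the 48 h. GY1 (at) averaged 16.24 ± 0.10 (SD, n = 26) log2 and was the second brightest probe set on all 26 arrays. GY5 averaged 15.83 ± 0.09 (SD, n = 26), with ranks of 4 to 6, and CG-BETA-1 (a_at), a beta subunit gene of beta-conglycinin, averaged 15.68 ± 0.10 (SD, n = 26), with ranks of 7 to 8. These 3 probe sets were among the 20 with the highest mean signal in the table. Only GY1 (at) came within 0.5 log2 of the highest signal of its array, and it did so on 26 of 26 arrays, and whether the ceiling compressed its changes was not tested.

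The next 5 probe sets lay on average 1.94 to 3.53 log2 units below the highest signal of their array. GY2 (s_at) averaged 14.65 ± 0.11 and GY2 (at) 14.15 ± 0.14 (SD, n = 26 each). GY3 averaged 13.50 ± 0.41, GY1 (s_at) 13.46 ± 0.15 and CG-BETA-1 (at) 13.07 ± 0.18 (SD, n = 26 each). GY7, the glycinin gene of lowest signal among those tested, averaged 7.55 ± 0.34 (SD, n = 26). Its signal stayed on average 5.32 log2 above the lowest signal of its array. CG-1 averaged 2.30 ± 0.41 (SD, n = 26), which was on average 0.08 and at most 0.56 log2 above the lowest signal of its array, so this probe set gave no usable level and was not tested. Its values ran from 1.65 at 36 h in replicate 1 to 3.02 at 40 h in replicate 2, with a mean of 1.92 on the low floor arrays and 2.69 on the high floor arrays. The probe set shared by CG-1 and CG-3, which was left out, averaged 14.74 ± 0.11 (SD, n = 26). It can hold RNA of either gene, so the level of CG-1 itself is not known. The left-out GY4 probe sets averaged 15.34 ± 0.09 and 14.53 ± 0.11 (SD, n = 26 each). Signals of different probe sets depend on their probes, so this order describes the arrays and is no order of transcript amounts.

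GY3 stood apart from the other bright storage globulins by its spread. Its SD of 0.41 was exceeded by 1 of the 161 tested probe sets with a mean between 13 and 14 log2, for which the median SD was 0.13. GY1 (s_at) and CG-BETA-1 (at), of the same level, were exceeded by 49 and 25 of them. GY7 was exceeded by 495 of the 3829 probe sets between 6 and 8 log2. Among the probe sets above 15 log2, of which there were 35, GY1 (at) was exceeded by 7, CG-BETA-1 (a_at) by 13 and GY5 by 24.

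**Figure D1:**
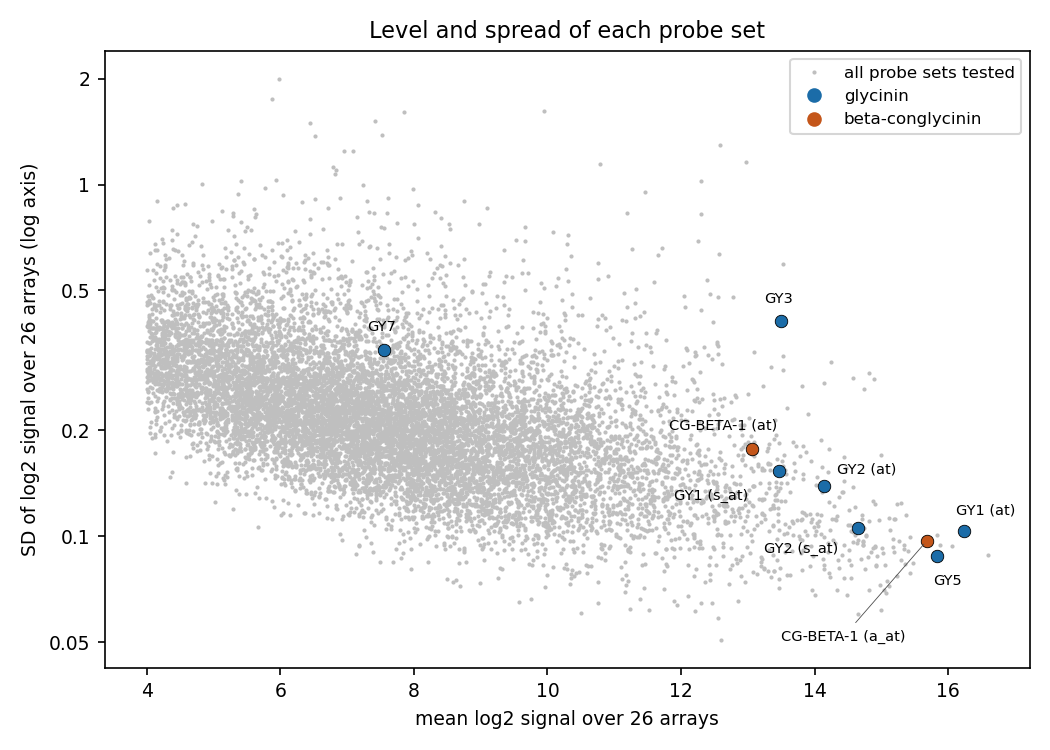
Mean log2 signal (x axis) and SD of the log2 signal over the 26 arrays (y axis, log scale) of every tested probe set (grey), with glycinins in blue and beta-conglycinins in orange. GY3 at 13.50 has an SD of 0.41 and sits above nearly all probe sets of its level, while GY1 (at), GY5 and CG-BETA-1 (a_at) lie at the bright end with SDs of 0.09 to 0.10.

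The values of GY3 show where this spread came from. From 24 to 32 h, replicates 1 and 2 read 13.77 and 13.73 at 24 h, 12.54 and 13.57 at 28 h, and 12.47 and 13.58 at 32 h. The replicates were close at subjective dawn and more than 1 log2 unit apart in the subjective day that followed, when replicate 1 gave the lowest values of the series. From 36 to 48 h they read 13.12 and 13.58 at 36 h, 13.27 and 13.73 at 40 h, 13.96 and 13.63 at 44 h, and 13.14 and 14.07 at 48 h. Replicate 2 was the higher at 36, 40 and 48 h and the lower at 44 h, and its 14.07 was the highest value of GY3 in the series. From 52 to 60 h they read 13.41 and 12.99 at 52 h, 13.66 and 13.33 at 56 h, and 13.72 and 13.25 at 60 h. From 64 to 72 h they read 14.001 and 13.45 at 64 h, 13.79 and 13.84 at 68 h, and 13.96 and 13.36 at 72 h. Replicate 1 was the higher at 5 of these 6 times. The low values of 28 and 32 h, from replicate 1 alone, did not recur in the second subjective day. Its lowest value was 12.99, in replicate 2 at 52 h. Replicate 1 was the low floor array at every time except 64 and 72 h, so replicate number and floor group cannot be told apart at the other times.

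GY3 also differed between the floor groups of arrays, with 13.36 ± 0.46 (SD, n = 13) on the low floor arrays and 13.64 ± 0.31 (SD, n = 13) on the high floor arrays. GY7 did likewise, with 7.41 ± 0.31 and 7.68 ± 0.32 (SD, n = 13 each). The other 7 tested members differed by less than 0.05 log2 between these groups. The part of the floor groups in the spread of GY3 and GY7 was not tested, and their differences between times are also given within each group.

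**Figure D2:**
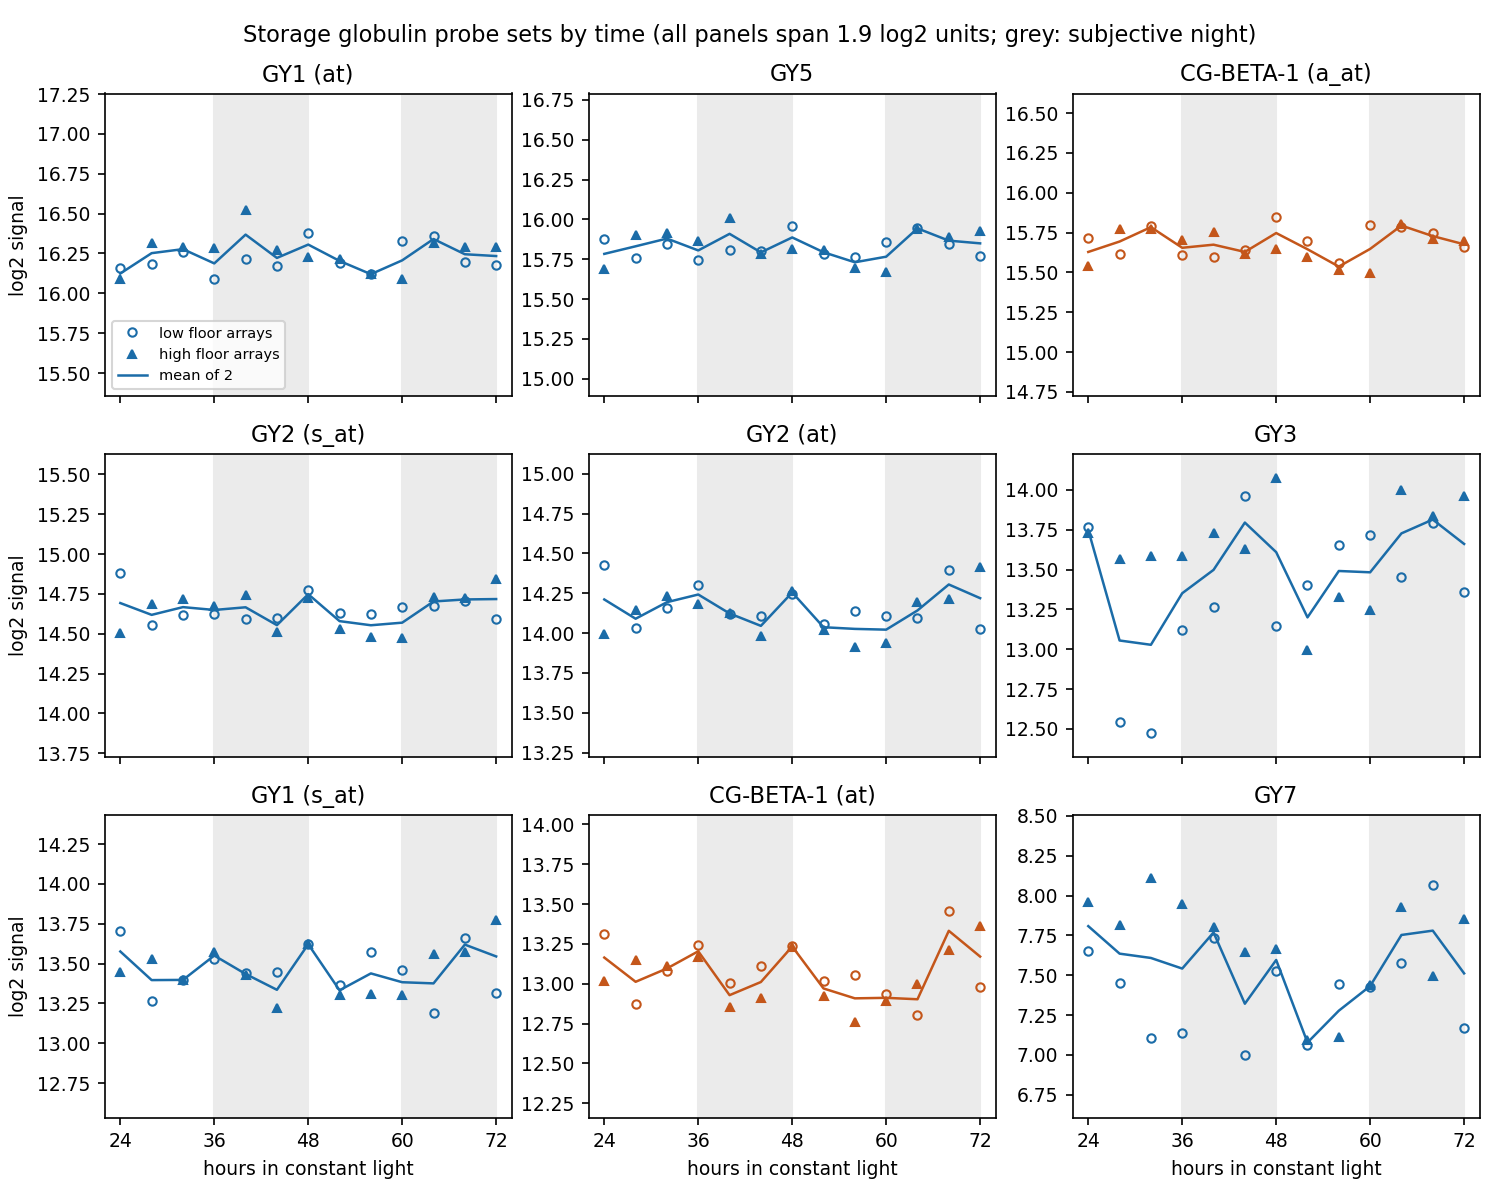
Log2 signal (y axis, every panel spanning 1.9 units) of the 9 tested storage globulin probe sets against hours in constant light (x axis), with open circles for low floor arrays, triangles for high floor arrays and a line through the mean of the 2 replicates; grey marks subjective night, blue glycinins and orange beta-conglycinins. GY3 and GY7 scatter widely between replicates, with GY3 at 12.47 in replicate 1 at 32 h, and the other panels stay nearly flat.

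The study is about circadian control of gene expression in seeds. No storage globulin passed a test for a 24 h rhythm, and GY3 came nearest, with a peak late in the subjective night. The moderated F test of limma for a cosine and a sine with a 24 h period, beside linear time and adjusted by Benjamini-Hochberg over all 11481 probe sets tested, called 0 of the 9 members at an adjusted p under 0.05, against 1.2% of all tested probe sets. At an unadjusted p under 0.05 there was 1 member, against 10.3% of all tested. The amplitude of GY3 was 0.29 ± 0.10 (SE) log2, so that its fitted peak, at 19.5 h after subjective dawn, was 1.49-fold above its trough. Its unadjusted limma p was 0.0290 and its adjusted limma p 0.390. Within the low floor arrays alone the amplitude was 0.29 (unadjusted limma p 0.208), and within the high floor arrays 0.29 (unadjusted limma p 0.0327). Only the fitted size is compared here, without the time of the peak. The differences of GY3 between times, given below, were unlike between the floor groups. Without replicate 1 of 32 h, the lowest value, it was 0.24 and the unadjusted limma p rose to 0.0731.

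The other 8 members had amplitudes of 0.02 to 0.19 log2. GY7 was the largest of them at 0.19 ± 0.10 (SE), with a peak at 18.3 h and an unadjusted limma p of 0.172. Its unadjusted limma p ranged from 0.0247 without replicate 1 of 44 h to 0.302 with other single arrays left out. CG-BETA-1 (at), the beta-conglycinin probe set with the smallest rhythm p, had 0.10 ± 0.05 (SE) with a peak at 22.8 h and an unadjusted limma p of 0.149. The 4 smallest amplitudes were those of the brightest members: 0.05 ± 0.04 (SE) for GY1 (at), 0.04 ± 0.03 for GY5, 0.02 ± 0.04 for CG-BETA-1 (a_at) and 0.05 ± 0.04 for GY2 (s_at). Between trough and peak these fits changed 1.07-fold, 1.06-fold, 1.03-fold and 1.07-fold. The median amplitude of the members was 0.06 log2, and that of all tested probe sets 0.08. The smallest amplitude that was called anywhere in the table was 0.15.

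The fitted peaks of all 9 members lay between 17.3 h for GY1 (at) and 22.8 h for CG-BETA-1 (at), from about the middle of the subjective night to near its end. That range held 23.2% of the fitted peaks of all tested probe sets. The members were measured on the same arrays and fitted peaks of uncalled rhythms are imprecise, so this is a description with no test. Whether the first and the second cycle differed was tested by an interaction in limma over 24 to 68 h, which called 0 of 9 members and 0.0% of all tested. At an unadjusted p under 0.05 there were 2 members, CG-BETA-1 (at) at 0.0391 and GY2 (at) at 0.0427, against 9.42% of all tested, and their adjusted limma p were 0.488 and 0.501. For GY3 the unadjusted limma p of this interaction was 0.609 and the adjusted limma p 0.875.

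**Figure D3:**
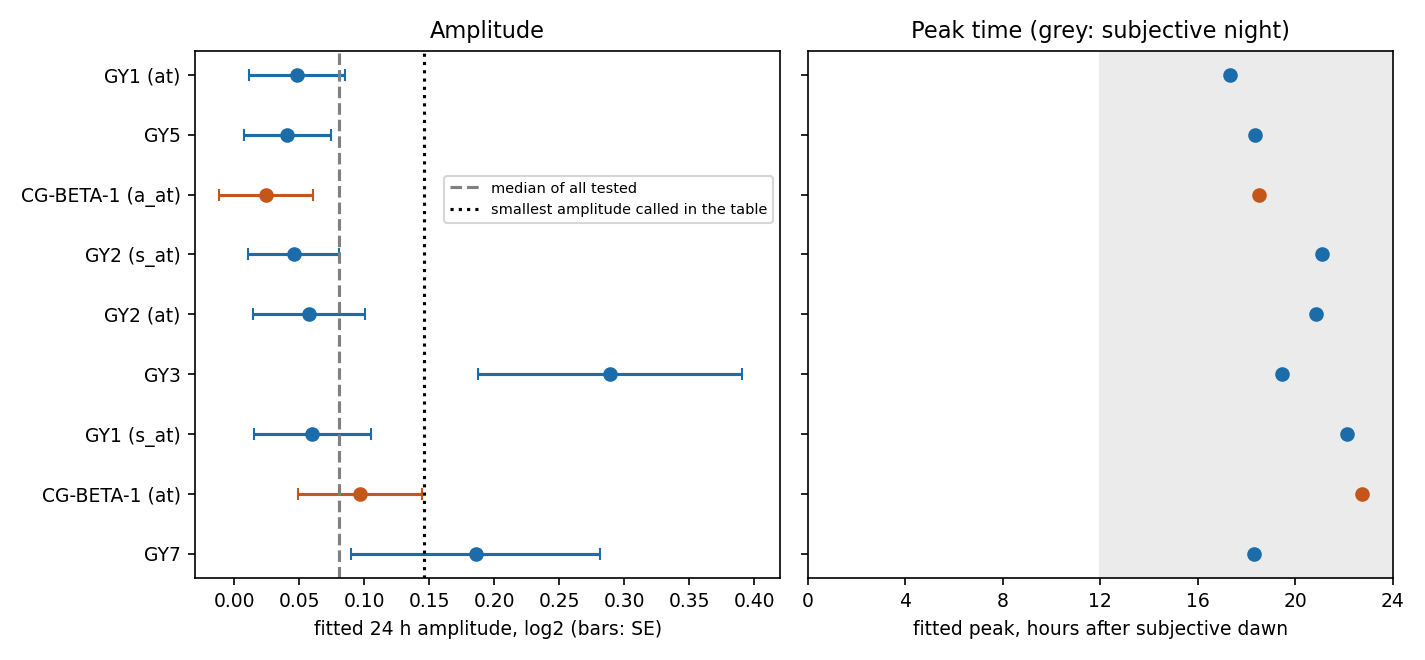
Fitted 24 h amplitude in log2 with its SE (left) and fitted peak in hours after subjective dawn (right, grey for subjective night) of the 9 tested members, glycinins in blue and beta-conglycinins in orange. GY3 at 0.29 lies to the right of the smallest amplitude called in the table, 0.15 (dotted line), without passing the test, and all peaks fall between 17.3 and 22.8 h.

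Late subjective night (44 and 68 h) was set against subjective midday (32 and 56 h), 4 arrays each. The 4 late night arrays of GY3 averaged 13.80 ± 0.14 and its 4 midday arrays 13.26 ± 0.54 (SD, n = 4 each). The night arrays ran from 13.63 to 13.96 and the midday arrays from 12.47 to 13.66, so the groups overlapped. The limma difference was 0.54 ± 0.28 (SE) log2, with a 95% interval of -0.04 to 1.13 and an adjusted p of 0.683, which is a ratio of 1.46 with an interval of 0.976 to 2.18. It was 0.81 between the low floor arrays and 0.28 between the high floor arrays, and 0.27 without replicate 1 of 32 h.

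CG-BETA-1 (at) averaged 13.17 ± 0.23 in the late night and 13.003 ± 0.16 at midday (SD, n = 4 each), a difference of 0.17 ± 0.11 (SE) log2 with an interval of -0.07 to 0.41. The other 7 members differed by 0.02 to 0.11. The interval was -0.16 to 0.23 log2 for GY1 (at) and -0.16 to 0.21 for GY5. These cover the signals as read near the ceiling and set no limit on the change of the transcripts. For GY7 the difference was 0.26 between the low floor arrays and -0.04 between the high floor arrays. In limma 0 of 9 members were called, against 0.54% of all tested, 0 had an unadjusted p under 0.05, against 7.85%, and 0 had groups that did not overlap, against 4.42%. All 9 estimates were above 0, as were 47.2% of all tested, which is a count over probe sets that share their arrays and in part their RNA. Within the floor groups GY1 (at) was below 0 on the low floor arrays and GY7 on the high floor arrays.

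The seed coat was sampled with the embryo, and its markers are given beside GY3. The list held 25 probe sets, of which 17 were tested and 0 passed the rhythm test, against 1.2% of all tested. At an unadjusted limma p under 0.05 there were 3, against 10.3% of all tested. SCB1, a BURP domain protein of the seed coat, had an amplitude of 0.75 ± 0.20 (SE) with a peak at 20.2 h. HPS, the hydrophobic protein on the seed surface, had 0.19 ± 0.07 (SE) at 20.1 h. LOC547835, a lipoxygenase gene that entered the list through a synonym, had 0.39 ± 0.13 (SE) at 19.4 h. These 3 were named for the smallest rhythm p of the list. Of the other seed coat markers named above as bright, Ep had 0.13 ± 0.05 (SE) at 20.9 h and PRP2 0.03 ± 0.13 (SE) at 3.0 h. Late night minus midday was above 0 in 10 of the 17 tested, against 47.2% of all tested. Through symbols starting with SC the list also took in calmodulin genes (SCAM), SCA1, SCA2 and SCOF-1. With the lipoxygenase gene they made up most of its tested probe sets. The counts and the summed level are therefore those of the list and not of the seed coat. A mean below the filter of 4 log2 was found for 8 probe sets of the list. The summed level of the list ran from 15.82 to 16.10 log2 on the night arrays and from 15.60 to 15.93 at midday. The part of the seed coat in the values of GY3 was not tested.

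Subjective dawn (24, 48 and 72 h, 6 arrays) was set against subjective dusk (36 and 60 h, 4 arrays). GY3 had a dawn mean of 13.67 ± 0.36 (SD, n = 6) and a dusk mean of 13.42 ± 0.28 (SD, n = 4). They differed by 0.26 ± 0.25 (SE) log2, with an interval of -0.27 to 0.79. The difference was 0.0039 between the low floor arrays and 0.51 between the high floor arrays. It was 0.10 without replicate 2 of 48 h and 0.41 without replicate 1 of 48 h. GY7 averaged 7.64 ± 0.28 (SD, n = 6) and 7.49 ± 0.34 (SD, n = 4), a difference of 0.15 ± 0.21 (SE), with 0.17 between the low floor arrays and 0.13 between the high floor arrays. CG-BETA-1 (at) averaged 13.19 ± 0.16 (SD, n = 6) and 13.06 ± 0.17 (SD, n = 4), a difference of 0.13 ± 0.10 (SE). The ranges of dawn and dusk overlapped in each of the 9 members, against 1.14% of all tested without overlap. In limma 0 of 9 were called, against 0.0% of all tested, and 0 had an unadjusted p under 0.05, against 5.41%. All 9 estimates were above 0, from 0.02 for GY1 (at) to 0.26 for GY3, as were 55.6% of all tested. The 9 members share their arrays and in part their RNA, so their signs are not separate evidence. The dawn and dusk test rests on other arrays than the night and midday test, and both use the spread of the same fit.

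**Figure D4:**
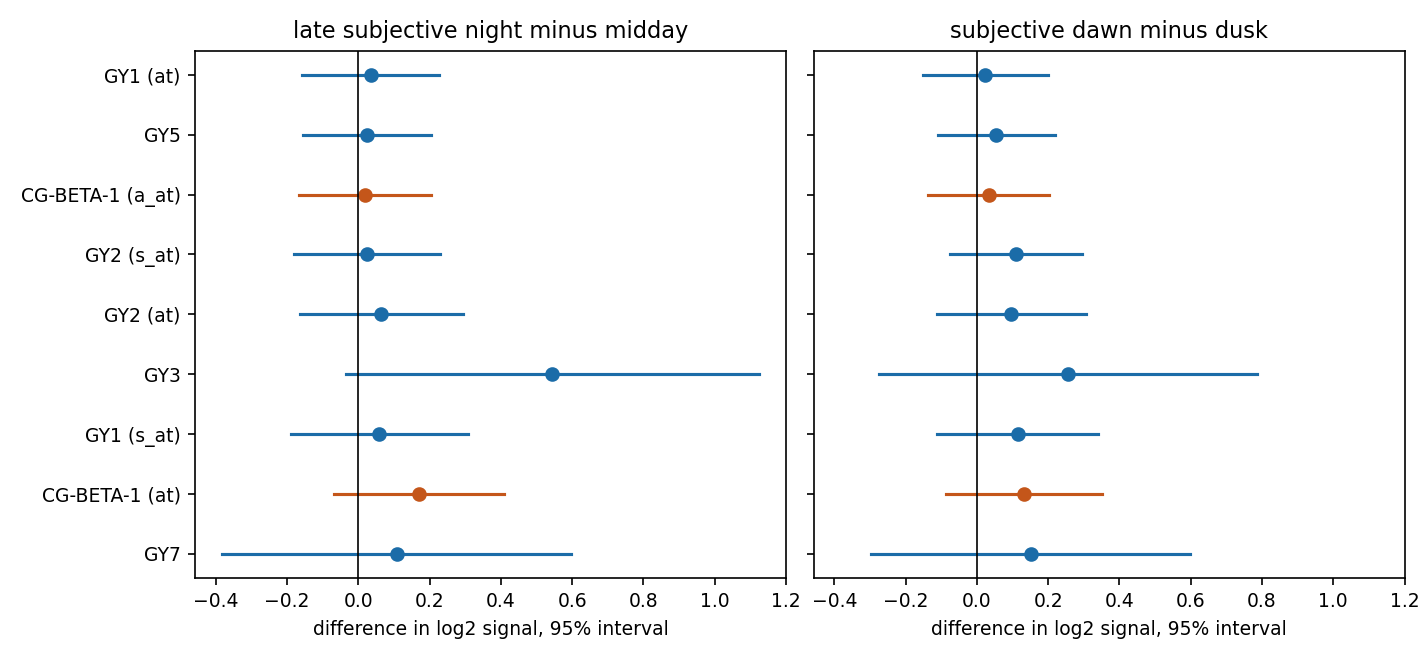
Difference in log2 signal with its 95% interval for late subjective night minus midday (left) and subjective dawn minus dusk (right), for the 9 tested members, glycinins in blue and beta-conglycinins in orange. Every interval includes 0, and GY3 has the largest estimates, 0.54 and 0.26.

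Storage transcripts change as seeds age, so the change over the 48 h was also tested. GY7 had the largest fall, with a fitted change of -0.26 ± 0.21 (SE) log2 over 48 h, and GY3 the largest rise, with 0.20 ± 0.22 (SE). Both changed sign between the floor groups: the change of GY3 was 0.45 within the low floor and -0.045 within the high floor arrays, and that of GY7 0.032 and -0.55. The other 7 members had changes of -0.03 to 0.00. The 95% interval was -0.17 to 0.16 for GY1 (at) and -0.69 to 0.17 for GY7. In limma 0 of 9 members were called for a linear trend, against 0.0% of all tested, and 0 had an unadjusted p under 0.05, against 5.33%. The mean of the second day minus that of the first was 0.14 ± 0.16 (SE) for GY3 and -0.13 ± 0.13 (SE) for GY7. Here too the signs turned between the floor groups, with 0.34 on the low floor and -0.06 on the high floor arrays for GY3, and 0.17 and -0.43 for GY7. In limma 0 of 9 members were called between the days, against 0.00871% of all tested, or had an unadjusted p under 0.05, against 6.11%. A limma test over all 13 times, which assumes no shape, called 0 of 9 members, against 0.0436% of all tested, and 0 had an unadjusted p under 0.05, against 7.49%.

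The values of the brightest glycinin and beta-conglycinin probe sets, given in the order of replicates 1 and 2, stayed within narrow ranges. GY1 (at) read 16.16 and 16.09 at 24 h, 16.19 and 16.32 at 28 h, 16.26 and 16.29 at 32 h, 16.09 and 16.29 at 36 h, 16.22 and 16.52 at 40 h and 16.17 and 16.27 at 44 h. From the second subjective dawn on it read 16.38 and 16.23 at 48 h, 16.19 and 16.22 at 52 h, 16.12 and 16.12 at 56 h, 16.33 and 16.09 at 60 h, 16.32 and 16.36 at 64 h, 16.20 and 16.29 at 68 h and 16.29 and 16.18 at 72 h. Its lowest value, 16.09, came from replicate 2 at 60 h and its highest, 16.52, from replicate 2 at 40 h, a span of 0.43 log2 in which the times overlapped. CG-BETA-1 (a_at) read 15.72 and 15.54 at 24 h, 15.62 and 15.77 at 28 h, 15.79 and 15.78 at 32 h, 15.61 and 15.70 at 36 h, 15.60 and 15.75 at 40 h and 15.64 and 15.61 at 44 h. It then read 15.85 and 15.65 at 48 h, 15.69 and 15.60 at 52 h, 15.56 and 15.51 at 56 h, 15.80 and 15.50 at 60 h, 15.80 and 15.79 at 64 h, 15.75 and 15.71 at 68 h and 15.70 and 15.66 at 72 h. It ran from 15.50 in replicate 2 at 60 h to 15.85 in replicate 1 at 48 h, so that the array with the lowest GY1 (at) value also had the lowest of CG-BETA-1 (a_at).

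CG-BETA-1 (at) read 13.31 and 13.02 at 24 h, 12.88 and 13.15 at 28 h, 13.08 and 13.11 at 32 h, 13.24 and 13.17 at 36 h, 13.01 and 12.85 at 40 h and 13.11 and 12.91 at 44 h. It then read 13.24 and 13.23 at 48 h, 13.02 and 12.92 at 52 h, 13.06 and 12.76 at 56 h, 12.93 and 12.89 at 60 h, 12.9996 and 12.81 at 64 h, 13.46 and 13.21 at 68 h and 13.36 and 12.98 at 72 h. Its replicates at 68 h gave the highest time mean, 13.33, and those at 64 h the lowest, 12.90, only 4 h apart. GY7 read 7.65 and 7.96 at 24 h, 7.45 and 7.82 at 28 h, 7.10 and 8.11 at 32 h, 7.13 and 7.95 at 36 h, 7.73 and 7.80 at 40 h and 6.997 and 7.65 at 44 h. It then read 7.52 and 7.67 at 48 h, 7.06 and 7.10 at 52 h, 7.45 and 7.11 at 56 h, 7.42 and 7.44 at 60 h, 7.93 and 7.58 at 64 h, 8.06 and 7.50 at 68 h and 7.85 and 7.17 at 72 h. At 32 h its replicates were 1.01 log2 apart, its widest gap. The lowest mean of GY7 was that of 52 h, 7.08, where both replicates were low, and replicate 2, a high floor array at each of these times, was the higher at all 6 times from 24 to 44 h.

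The probe sets of a gene did not always move together. Over the 26 arrays the GY2 probe sets correlated at r = 0.87 (Spearman rho 0.83, permutation p 1e-05, the smallest that the permutations can give, adjusted p 0.00011 over 22 relations). Without the 2 arrays farthest from the median r was 0.80, and it was 0.76 within the low floor and 0.95 within the high floor arrays. The CG-BETA-1 probe sets correlated at r = 0.31 (rho 0.25, permutation p 0.120, adjusted p 0.389). Without the 2 farthest arrays r was 0.29, and within the floor groups 0.12 and 0.47. The GY1 probe sets correlated at r = 0.08 (rho 0.12, permutation p 0.700, adjusted p 0.810), with 0.05 without the 2 farthest arrays and -0.22 and 0.30 within the floor groups. Of the 3 genes with a pair of probe sets, GY2 was therefore the only case in which a relation between them was detected. The brighter probe set of GY1 and of CG-BETA-1 was the one among the 20 brightest of the table.

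**Figure D5:**
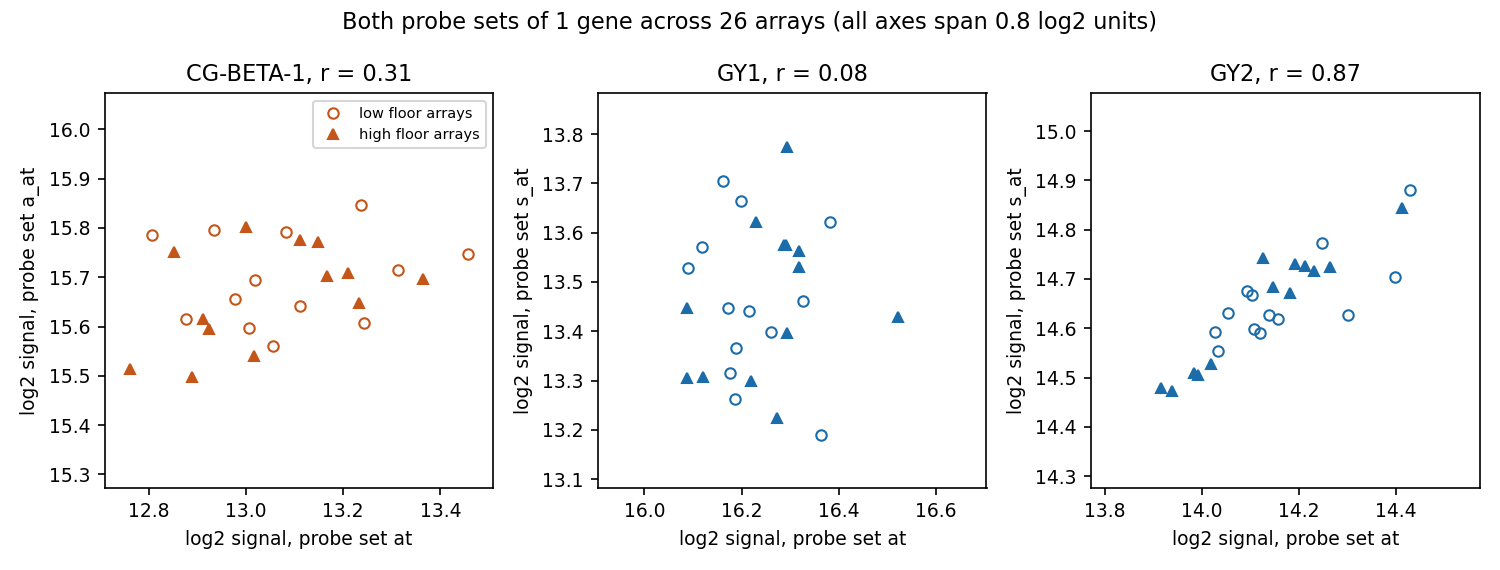
Log2 signal of the 2 probe sets of CG-BETA-1, GY1 and GY2 against each other on the 26 arrays, with open circles for low floor arrays and triangles for high floor arrays; every axis spans 0.8 log2 units. The GY2 probe sets follow each other (r = 0.87), and those of CG-BETA-1 (r = 0.31) and GY1 (r = 0.08) do not pass the permutation test.

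The brightest members varied with the brightest probe set of the arrays. The correlation with it was r = 0.90 for GY1 (at) (rho 0.87, permutation p 1e-05, adjusted p 0.00011), 0.74 for GY5 (rho 0.70, permutation p 2e-05, adjusted p 0.000147) and 0.68 for CG-BETA-1 (a_at) (rho 0.71, permutation p 0.0001, adjusted p 0.00055). Without the 2 farthest arrays these were 0.86, 0.67 and 0.70. Within the low floor arrays they were 0.95, 0.72 and 0.72, and within the high floor arrays 0.90, 0.80 and 0.69. The other 6 members had r of -0.26 to 0.31 and did not pass the adjusted permutation test. These 3 probe sets thus moved with the top of the array, over ranges of 0.34 to 0.43 log2. Against the median of the seed maturation list, which held late embryogenesis and related genes and, through its symbol pattern, 4 probe sets of Rab GTPases and that of PMM, 0 of 9 members passed, with r of -0.21 to 0.28. GY3 and GY7, which are neighbouring genes, correlated at r = 0.47 (rho 0.46, permutation p 0.0146, adjusted p 0.0642), 0.62 without the 2 farthest arrays, and 0.23 and 0.62 within the low and high floor arrays.

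All 7 genes of the members were found in RefSeq's gene table (assembly Glycine_max_v4.0), where GY3 and GY7 lie next to each other with 0 protein-coding genes between them, and so do GY1 and GY2. CG-BETA-1 and CG-3 have 16 protein-coding genes between them. The neighbours GY1 and GY2 are bright throughout, while in the other pair GY3 was bright and GY7 was not.

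The probe sets whose values over the 26 arrays were most like those of GY3, among 3868 probe sets with a single symbol, were those of EBP (r = 0.81), LOC100785952 (r = 0.80), the lipoxygenase gene LOC547835 (r = 0.79), LOC100527260 (r = 0.75) and UR2 (r = 0.75). For CG-BETA-1 (a_at) they were BG7S-1, a basic 7S globulin (r = 0.88), LOC100101848 (r = 0.87), the Kunitz trypsin inhibitor genes KTI3 (r = 0.87) and KTI1 (r = 0.86), and CP3 (r = 0.86). All 5 of the latter had a mean above 15 log2 and thus lay near the top of the array. These were picked for their likeness and get no test, and the points of each share the same arrays.

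The list of other stored seed proteins was described by the same rhythm test. Of 13 tested probe sets 0 were called in limma, against 1.2% of all tested, and 2 had an unadjusted p under 0.05, against 10.3%, with a median amplitude of 0.04 log2. BBI-2, a Bowman-Birk protease inhibitor gene, had an amplitude of 0.64 ± 0.18 (SE) at a low mean of 5.61 log2, with a peak at 7.2 h and an adjusted limma p of 0.164. LOC100787186, whose synonym is sbp, had 0.11 ± 0.04 (SE) and a peak at 21.6 h (adjusted limma p 0.360), and BG7S-2, a basic 7S globulin, 0.49 ± 0.22 (SE) and a peak at 8.3 h (adjusted limma p 0.581).

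Genes for the folding, transport and cleavage of storage proteins held the only rhythm call of the lists. Of 10 tested probe sets 1 was called for a rhythm in limma, against 1.2% of all tested, and 6 had an unadjusted p under 0.05, against 10.3%, with a median amplitude of 0.18 log2. Both tested probe sets of BIP4 and of VPE2 are among the 6, so this is a count of probe sets and not of genes. BIP4, the luminal chaperone of the endoplasmic reticulum, passed with an amplitude of 0.26 ± 0.06 (SE), a peak at 19.4 h and an adjusted limma p of 0.0475. The call held in 6 of the 26 fits with 1 array left out, where its amplitude ran from 0.21 to 0.32, and the other tested BIP4 probe set had 0.27 ± 0.07 (SE) and an adjusted limma p of 0.150. Within the low floor arrays alone the amplitude of the called probe set was 0.15, and within the high floor arrays 0.37. PDIM-1, a protein disulfide isomerase, an enzyme that forms disulfide bonds in the endoplasmic reticulum, had 0.21 ± 0.06 (SE) and a peak at 19.1 h (adjusted limma p 0.199). VPE2, a vacuolar processing enzyme of the kind that cleaves proglycinin, had 0.29 ± 0.10 (SE) and a peak at 12.2 h (adjusted limma p 0.329). Its other probe set had 0.24 ± 0.09 (SE) and a peak at 12.1 h (adjusted limma p 0.389).

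The remaining lists held 0 calls for a rhythm in limma, against 1.2% of all tested, and 10.3% of all tested had an unadjusted p under 0.05. They were the seed regulators (1 tested), seed maturation and desiccation genes (38 tested, 1 at an unadjusted p under 0.05) and housekeeping genes (4 tested, 1 at an unadjusted p under 0.05). For maturation genes the test over all 13 times gave 0 calls and 17 of 38 at an unadjusted p under 0.05, against 7.49% of all tested. The interaction of cycle and rhythm gave 0 calls and 23 of 38, against 9.42%, while the storage globulins gave 0 and 2 of 9. These counts include the 4 probe sets of Rab GTPases. The difference between the lists was not tested.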

How the data were processed

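Total RNA of 2.5 µg per sample was labelled with biotin, per the labels' protocols. The authors deposited log2 signals per probe set, normalized with GCRMA per the submitters' processing notes; the sources used here give neither its version nor a filter. That the scale is log2 was taken from the range of values. The table was in ID order and may be partial, so counts apply to it alone. Groups are the times that the titles give. Whether both replicates of a time shared plants is not stated, so p-values reflect only the spread of these samples, which could be technical.

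Tests covered the 11481 probe sets whose log2 signal averaged above 4, with lmFit and eBayes of limma 3.58.1 in R 4.3.3 and Benjamini-Hochberg adjustment at 0.05 over all of them. Rhythm was a moderated F of a 24 h cosine and sine beside linear time; contrasts came from a fit of the 13 times. Correlations used 100000 permutations. The steps were tested on simulated data. Members, gene lists and tests were chosen with earlier results of these data known. Symbols came from the platform annotation, and 0 of 7 changed in the RefSeq table; coordinates are left out, since no source names the build of the array. Each member was named. Values by array follow GY3, the brightest member of either family, that of smallest rhythm p and that of lowest tested mean. Other genes are up to 3 of each list by smallest rhythm p, and the 5 probe sets most like GY3 and CG-BETA-1 (a_at). Alternatives covered the filter, normalization, moderation, blocks, periods, single arrays left out and, chosen after seeing the data, the floor groups and the 3 probe sets with several gene entries.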

Additional observations from a re-analysis of the deposited data

Results flagged for a closer look

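Among the 36 groups of 4 to 10 arrays checked for a value far from the others, 1 was found, where chance alone gives about 1 in 20 groups. CG-BETA-1 (at) read 12.76 log2 in replicate 2 of 56 h, while the other 3 subjective midday arrays lay between 13.06 and 13.11. The gap to the nearest was 0.843 of the whole range of the 4 arrays. This array also gave the lowest CG-BETA-1 (at) value of the series, and the late night minus midday difference of 0.17 log2 was 0.10 without it.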

How the results depend on the processing

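No storage globulin passed the adjusted limma threshold in any of the 2158 fits of the members, over 239 combinations of a setting and a test; the smallest adjusted p was 0.174, for the rhythm of GY3 without the linear time term. Over 1668 comparisons of a value with its alternative, 1652 kept side of the threshold and direction, and 4 changed sign with all arrays or a floor group. Many of these values were rhythm amplitudes, ranges over the times or sizes of the cycle interaction, which are never negative and could not change sign. For the trend and the difference between days only GY3 and GY7 were compared. The share that kept direction is therefore no measure of stability. The trend of GY3 was -0.045 within the high floor arrays and that of GY7 0.032 within the low floor arrays; for CG-BETA-1 (a_at), dawn minus dusk was -0.0044 after quantile normalization and late night minus midday -0.00065 after scaling to the 99th percentile. Leaving out single arrays changed the sign in 12 cases, with ranges for dawn minus dusk of -0.041 to 0.11 for CG-BETA-1 (a_at), -0.036 to 0.084 for GY1 (at) and -0.052 to 0.36 for GY7, and for late night minus midday of -0.0067 to 0.13 for GY1 (s_at), -0.012 to 0.061 for GY2 (s_at) and -0.14 to 0.36 for GY7. After quantile normalization the SD of GY1 (at) was 0, since it held the second rank on every array. With single arrays left out the amplitude of GY3 ran from 0.24 to 0.34, and its unadjusted p stayed under 0.05 in 22 of 26 fits. The BIP4 call was also lost without the filter, after 99th percentile scaling, with the replicate block (adjusted limma p 0.0564), with a period of 22 h and within the low floor arrays.

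The replicate numbers showed no steady pairing of the samples: over 78 pairs of times, deviations of same-numbered arrays correlated at -0.38 to 0.61 with a median of 0.02, over 0.1 in 34. At most times replicate 1 was the low floor array, so same-numbered arrays mostly shared a floor group. With the number as a block the GY3 amplitude stayed 0.29 with an adjusted limma p of 0.385, and with the floor group as a block the adjusted p was 0.275. Counts over the whole table moved more. Rhythm calls were 76 without the filter, 232 after quantile normalization, 90 after 99th percentile scaling, 64 with a period of 22 h, 258 without linear time, 0 and 42 within the low and high floor arrays, and 72 to 199 with an array left out, against 138. Night and midday calls ran from 36 to 137, and from 5 to 94 with an array left out, against 62; calls over all times ran from 0 to 79 against 5, from 0 to 59 with an array left out. Calls between the days ran from 0 to 4 against 1, and those of the trend and of the cycles from 0 to 3 against 0, the latter up to 55 with an array left out.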
